A study of Mus musculus with 6 samples.

Results

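The genes described here are the mouse enzymes that build haem and the inducible enzyme that breaks it down: Alas1, Alas2, Alad, Uros, Urod, Cpox, Ppox, Fech and Hmox1. They were taken by gene symbol from the deposited count table, and the list was drawn up with earlier results of these data known. The table lists 51361 genes, all 9 of these genes are in it, and all 9 were among the 16657 genes that passed the filter on low counts. The list does not hold every enzyme of the pathway. Haem is an iron-containing ring that carries oxygen in haemoglobin and electrons in respiratory enzymes. Its synthesis starts in the mitochondrion with 5-aminolevulinate synthase, passes through the cytosol, and ends in the mitochondrion, where ferrochelatase inserts iron. Every cell can use the housekeeping synthase Alas1, whereas red cell precursors use Alas2, which lies on the X chromosome. Haem oxygenase 1, the product of Hmox1, opens the ring to give biliverdin, carbon monoxide and free iron, and it is known to be induced in macrophages and microglia that take up haem after brain injury.

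The study sorted CD4+CD25+Foxp3+ regulatory T cells by flow cytometry from young male mice and sequenced their messenger RNA. All mice carried the transgene Tg(Foxp3-DTR/EGFP)23.2Spar, which puts a diphtheria toxin receptor and a green fluorescent protein under Foxp3 control, on a C57BL/6N background, and all were 9 weeks old. The 3 groups were cells from the brain and cells from the blood taken 14 days after transient middle cerebral artery occlusion of 60 min (tMCAO, a stroke model), and cells from the blood of sham-operated mice, with 2 libraries in each. Each library was made from 500 to 1000 cells, and the brain comparison here has no sham counterpart. Whether both libraries of a group came from different animals is not given in the labels, so the p-values reflect library-to-library spread alone, possibly technical.

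Library totals ranged from 14348179 to 24460894 counts. The sorted population was checked against marker lists, and the lists did not sit at the same level in the 3 groups. Foxp3, the factor that defines regulatory T cells, was at 0.726 and 19.6 CPM (counts scaled to a common library total) in brain libraries 1 and 2, at 0.538 and 5.18 CPM in tMCAO blood libraries 1 and 2, and at 50.1 and 60.7 CPM in the sham libraries. All levels are CPM on library sizes adjusted by trimmed-mean (TMM) scaling. The summed share of counts from 17 T cell genes ran from 0.0284% to 0.145% in brain, from 0.0644% to 0.439% in tMCAO blood and from 0.801% to 0.834% in sham blood. The 14 microglia genes took 1.9% to 2.28% of counts in brain, 0.319% to 0.516% in tMCAO blood and 0.0343% to 0.0579% in sham blood. The 14 monocyte and macrophage genes took 1.36% to 3.36%, 1.18% to 2.78% and 0.579% to 0.729% in the same order. Within the microglia list, the genes did not all follow the sum between the blood groups. P2ry12 was at 15.8 and 26.4 CPM in tMCAO blood and at 57.3 and 75.4 CPM in sham blood, against the sum. Csf1r, at 542 and 472 CPM in tMCAO blood and at 103.5 and 131.1 CPM in sham blood, went with it. Red cell genes, of which 17 of 18 were in the table, took 0.00144% to 0.00314% of counts in brain, 0.109% to 3.84% in tMCAO blood and 15.3% to 16.6% in sham blood. The part of these other cell types in each result below was not tested, and in bulk samples fewer cells of a type cannot be told apart from less RNA per cell.

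Promoter sequences are shown for 3 of the enzymes, because the pathway has a housekeeping and a red cell form of its first enzyme. Each window holds the 250 bases before the RefSeq transcription start in GRCm38.p6, written 5′ to 3′ on the gene's own strand. Capitals mark 2 kinds of letters that red cell transcription factors are known to bind: GATA letters, which are AGATAA with T also allowed in the first place and G in the last, and the CACCC letters. Each was searched on both strands. Alas2 lies at chrX:150547167-150547416 on the plus strand, Alas1 at chr9:106247955-106248204 on the minus strand, and Cpox at chr16:58669958-58670207 on the plus strand.
Alas2: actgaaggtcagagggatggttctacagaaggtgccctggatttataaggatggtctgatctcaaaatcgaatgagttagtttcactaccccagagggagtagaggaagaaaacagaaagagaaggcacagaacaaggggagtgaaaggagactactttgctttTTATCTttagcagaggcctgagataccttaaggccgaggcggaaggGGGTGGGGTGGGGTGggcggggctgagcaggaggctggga
Alas1: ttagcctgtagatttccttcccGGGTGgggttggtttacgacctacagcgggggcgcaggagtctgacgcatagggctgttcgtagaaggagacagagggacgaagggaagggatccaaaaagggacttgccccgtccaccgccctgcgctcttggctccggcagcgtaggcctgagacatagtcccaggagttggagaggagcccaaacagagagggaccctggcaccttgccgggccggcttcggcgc
Cpox: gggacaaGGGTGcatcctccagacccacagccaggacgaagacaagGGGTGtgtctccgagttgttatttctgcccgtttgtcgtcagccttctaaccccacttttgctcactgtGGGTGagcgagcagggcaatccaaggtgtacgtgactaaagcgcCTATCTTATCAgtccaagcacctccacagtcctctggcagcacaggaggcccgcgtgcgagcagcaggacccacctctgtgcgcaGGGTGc

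The Alas2 window holds 1 GATA match, 86 bases before the start, and 3 CACCC matches that abut one another 40, 35 and 30 bases before it. The Alas1 window shown holds 1 CACCC match, 228 bases before the start, and no GATA letters. The start of this window lies 700 bases inside the gene from its annotated 5′ end. The other Alas1 window, whose start lies 924 bases inside, also holds 1 CACCC match and no GATA letters. The Cpox window holds 2 GATA matches, 91 and 86 bases before the start, which share 1 base, and 4 CACCC matches. Windows of 7 of the 9 genes were used. No promoter entry was found for Hmox1, and windows of these genes on chromosome 18, where Fech lies, were left out. GATA letters were in the windows of Alas2 and Cpox and in 1 of the 2 windows of Uros, the one whose start lies 7572 bases inside the gene, and not in that 777 bases from its 5′ end. Of all 32851 windows of this length in the table, 26.5% hold one of the GATA words and 52.0% hold CACCC, so a match is common and is a description of letters only. The antioxidant response core TGACNNNGC, the letters read by NRF2 with its small MAF partners, was in none of the windows of these 7 genes and in 10.2% of all windows. Nothing was searched for Hmox1 or Fech.

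The housekeeping synthase Alas1 was higher in the brain than in either blood group. Its level was 230.2 and 134.5 CPM in the 2 brain libraries, with 34.8 and 21.8 CPM in blood after tMCAO and 22.1 and 26.3 CPM in the sham libraries. Both brain libraries lay above all 4 blood libraries, and the 2 blood groups overlapped. The microglia genes were also highest in brain, at 1.9% to 2.28% of counts, and their part in the Alas1 level was not tested. Alas1 was 6.44-fold higher in brain than in tMCAO blood (log2 difference 2.69 ± 0.40 SE, edgeR adjusted p = 0.0281, n = 2 libraries a group) and 7.53-fold higher than in sham blood (2.91 ± 0.40, adjusted p = 0.0146). Between the blood groups the log2 difference was 0.23 ± 0.38 (adjusted p = 0.720), and it was -0.15 without tMCAO blood library 1. The call against tMCAO blood was lost when brain library 1, either tMCAO blood library or either sham library was left out (adjusted p from 0.0616 to 0.0947), and when only the 2 groups were fitted (0.0813). The call against sham blood was lost without sham library 1 (0.154) or 2 (0.137). Alas1 lies on chromosome 9 from 106233455 to 106248654 (minus strand, GRCm38) and overlaps the antisense gene 4930500F10Rik. Whether the counting used strand is not given in the sources used here.

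The red cell synthase Alas2 had the widest range of the 9 genes. It had 2 and 0 counts in the brain libraries (0.121 and 0 CPM), 48 and 2066 counts in tMCAO blood (2.58 and 103 CPM), and 75461 and 99142 counts in sham blood (4844 and 6976 CPM). The 3 groups did not overlap, but the 2 tMCAO blood libraries differed by 39.8-fold, where the sham libraries differed by 1.44-fold. Alas2 was called lower in brain than in sham blood (adjusted p = 0.0188). The ratio of pooled counts per adjusted library size was 120200, with an exact 95% counting interval from 33270 to 992300 that covers counting error only. That call was lost when any library of the 2 groups was left out (adjusted p from 0.0582 to 0.114) and with limma-voom (0.0998). Against sham blood the tMCAO blood level was 112-fold lower (log2 difference -6.81 ± 1.75), which did not pass (adjusted p = 0.0646). It passed without tMCAO blood library 2 (0.0231), with limma-voom (0.0356) and with DESeq2's Wald test (0.00424). Between brain and tMCAO blood the ratio was 1122 in favour of blood (interval 310.1 to 9268), which did not pass (adjusted p = 0.0600) and did without tMCAO blood library 1 (0.0306). Summed red cell genes moved the same way, at 0.109% and 3.84% of counts in tMCAO blood libraries 1 and 2. Of the 17 red cell genes in the table, 11 had counts in brain library 1 (285 counts in all) and 6 in brain library 2 (768 counts), while Slc4a1, Epb42, Hba-a2 and Hbb-bt were among those with no count in either. Alas2 lies on chromosome X from 150547375 to 150570638 (plus strand) and overlaps Apex2 on the other strand.

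The middle enzymes gave smaller differences. Urod, the uroporphyrinogen decarboxylase, stood at 50.0 and 36.1 CPM in brain, with 28.4 and 28.8 CPM in blood after tMCAO and 81.5 and 124.3 CPM in the sham libraries, with no overlap between any groups. It was 3.60-fold lower in tMCAO than in sham blood (log2 difference -1.85 ± 0.32, adjusted p = 0.0360), a call lost without tMCAO blood library 1 (0.123) or 2 (0.0701) and without sham library 1 (0.192) or 2 (0.280). Against sham blood the brain difference was -1.26 ± 0.32 (adjusted p = 0.0566, and 0.00770 with DESeq2's Wald test), and against tMCAO blood it was 0.59 ± 0.32 (adjusted p = 0.272). Uros, the uroporphyrinogen III synthase, stood at 30.1 and 27.0 CPM in brain, with 18.8 and 5.83 CPM in blood after tMCAO and 47.1 and 63.9 CPM in the sham libraries. These groups also did not overlap, but the tMCAO blood libraries differed by 3.23-fold and the difference from sham blood did not pass with edgeR (-2.17 ± 0.56, adjusted p = 0.0647). It passed with DESeq2's Wald test (0.00318), limma-voom (0.0474) and the stricter filter of at least 5 CPM in 2 libraries (0.0473). The other Uros differences, 1.21 ± 0.55 in brain against tMCAO blood and -0.96 ± 0.54 in brain against sham blood, had adjusted p of 0.209 and 0.287.

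Alad and Cpox passed in no comparison. Alad, the aminolevulinate dehydratase, stood at 21.2 and 27.9 CPM in brain, with 12.9 and 19.8 CPM in blood after tMCAO and 21.3 and 28.4 CPM in the sham libraries. The brain and sham libraries overlapped almost fully (log2 difference -0.02, adjusted p = 0.982), and tMCAO blood was the lowest group (adjusted p = 0.328 against brain and 0.302 against sham blood). Cpox, the coproporphyrinogen oxidase, stood at 5.26 and 11.6 CPM in brain, with 17.5 and 21.5 CPM in blood after tMCAO and 14.1 and 8.73 CPM in the sham libraries. Both tMCAO blood libraries lay above the other 4, with log2 differences of -1.20 ± 0.50 for brain against tMCAO blood (adjusted p = 0.183), 0.77 ± 0.50 between tMCAO and sham blood (0.343) and -0.43 ± 0.50 between brain and sham blood (0.613). The GATA letters of its promoter, shown above, are shared with Alas2, while its levels did not follow those of Alas2 across the libraries (Pearson r of log2 CPM 0.25 over 6 libraries, a description). In coordinates of GRCm38, Urod lies on chromosome 4 (116989965 to 116994413) and Alad on chromosome 4 (62509169 to 62519918), both on the minus strand and with no overlapping gene. Uros lies on chromosome 7 (133686243 to 133710072, minus strand) and overlaps Bccip, and Cpox on chromosome 16 (58670292 to 58717636, plus strand) and overlaps Gpr15.

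**Figure D1:**
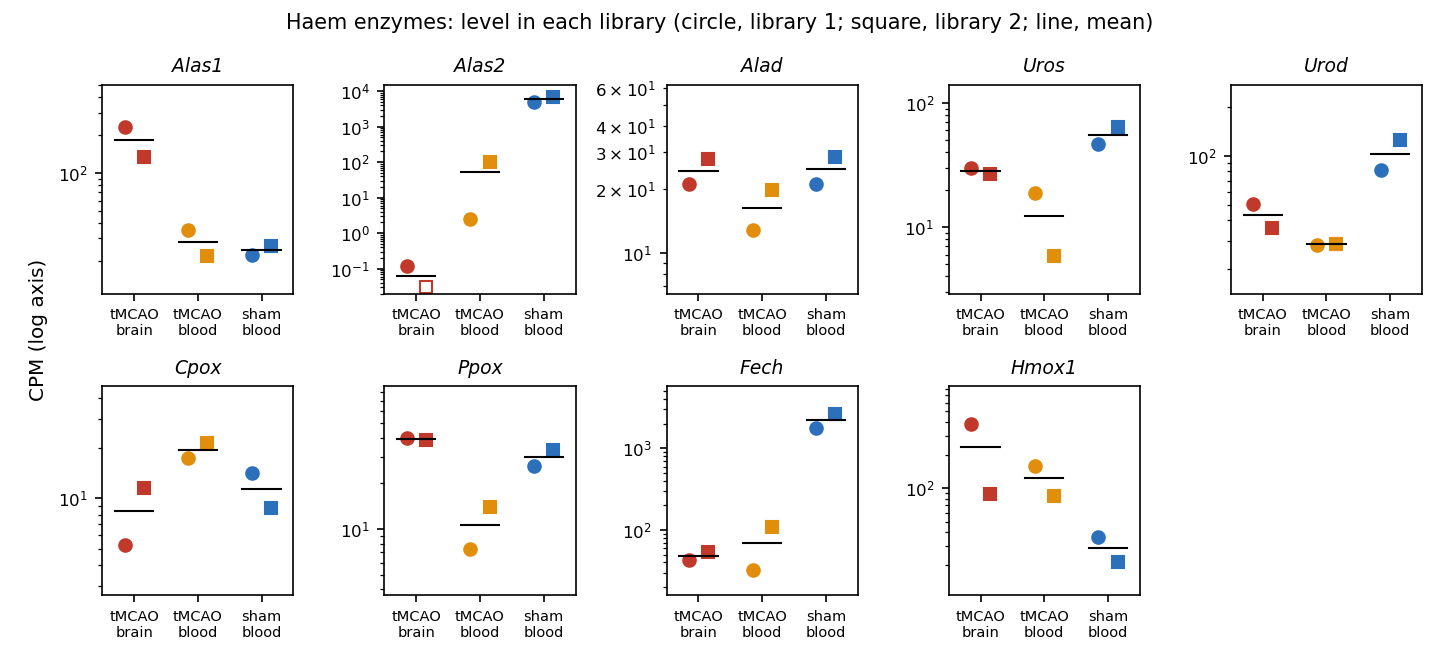
Levels of the 9 genes in each of the 6 libraries, as CPM on TMM-adjusted library size on a log axis, with 1 point a library coloured by group and a bar at each group mean. An open marker at the bottom stands for a count of 0 (Alas2 in brain library 2). Alas2 and Fech were highest in the sham libraries, Alas1 in the brain libraries, and the 2 tMCAO blood libraries stood apart from each other for Alas2.

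The last 2 enzymes behaved differently from each other. Ppox, the protoporphyrinogen oxidase, was at 40.0 and 39.0 CPM in brain, with 7.32 and 13.9 CPM in blood after tMCAO and 26.3 and 33.1 CPM in the sham libraries, with no overlap. It was 3.72-fold higher in brain than in tMCAO blood (log2 difference 1.89 ± 0.38, adjusted p = 0.0488). That call lies at the threshold: it was lost with each single library left out (adjusted p from 0.0608 to 0.147), with DESeq2 size factors (0.0509) and with scaling that left out the red cell genes (0.0540). The difference of tMCAO blood from sham blood was -1.48 ± 0.38 (adjusted p = 0.0642, and 0.00664 with DESeq2's Wald test), and that of brain from sham blood was 0.41 ± 0.37 (0.507). Ppox lies on chromosome 1 from 171275990 to 171281186 (minus strand) and overlaps B4galt3.

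Fech, the ferrochelatase, followed Alas2 in its order of groups in blood. It stood at 43.3 and 53.4 CPM in brain, with 31.9 and 107.7 CPM in blood after tMCAO and 1804 and 2646 CPM in the sham libraries. Both sham libraries lay far above the other 4, as they did for the summed red cell genes (15.3% to 16.6% of counts), and the brain libraries lay between the 2 tMCAO blood libraries. Fech was 31.9-fold lower in tMCAO than in sham blood (log2 difference -4.99 ± 0.70, adjusted p = 0.0313) and 46.0-fold lower in brain than in sham blood (-5.52 ± 0.72, adjusted p = 0.0138). The first call was lost without tMCAO blood library 1 (0.0715), sham library 1 (0.192) or sham library 2 (0.262), and the second without sham library 1 (0.107) or 2 (0.101). The difference between the blood groups was -4.37 without tMCAO blood library 1 and -6.12 without library 2. Brain and tMCAO blood differed by -0.53 ± 0.59 (adjusted p = 0.591), and by 0.59 without tMCAO blood library 2. Unlike Alas2, Fech kept 715 and 1307 counts in the brain libraries. Fech lies on chromosome 18 from 64452914 to 64490251 (minus strand).

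As a share of the counts of the 8 synthesis genes, Alas2 and Fech together made up nearly all of those in sham blood. Alas2 took 70.6% and 70.4% there and Fech 26.3% and 26.7%, while Alas1 took 0.322% and 0.266%. In the brain Alas1 led with 54.8% and 40.8%, Fech took 10.3% and 16.2%, and Alas2 took 0.0288% and 0%. The tMCAO blood libraries differed from each other: Alas1 took 22.6% and 6.77%, Alas2 1.68% and 32.0%, and Fech 20.7% and 33.4%. These shares are of raw counts, so a long gene weighs more than a short one. All 8 genes together took 0.0350% and 0.0330% of all counts in brain, with 0.0148% and 0.0388% in blood after tMCAO and 0.702% and 0.981% in the sham libraries.

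Hmox1, the haem-degrading enzyme, was ordered the other way, highest in the brain and lowest in sham blood by group mean. Its level was 385.4 and 89.5 CPM in brain, with 160.7 and 85.7 CPM in blood after tMCAO and 35.8 and 21.5 CPM in the sham libraries. All 4 tMCAO libraries lay above both sham libraries, the brain and tMCAO blood groups overlapped, and the 2 brain libraries differed by 4.31-fold. None of the 3 differences passed: tMCAO blood was 4.29-fold above sham blood (log2 difference 2.10 ± 0.73, adjusted p = 0.121), brain was 8.28-fold above sham blood (3.05 ± 0.76, adjusted p = 0.0545), and brain against tMCAO blood was 0.95 ± 0.71 (0.417). Both differences from sham blood passed with DESeq2's Wald test (adjusted p = 0.0253 for tMCAO blood and 0.000418 for brain), that of tMCAO blood also when only the 2 groups were fitted (0.0448), and that of brain also with the stricter filter (0.0441) and without brain library 2 (0.0237). Of 15 alternatives, 5 called the tMCAO blood difference from sham blood and 6 the brain difference from sham blood, so most did not. The brain difference from tMCAO blood was -0.47 without brain library 1. Per kilobase of exon, Hmox1 ranked first of the 9 genes in each of the 4 tMCAO libraries (220 and 51.1 CPM per kb in brain, 91.8 and 48.9 CPM per kb in tMCAO blood) and at places 4 and 6 in the sham libraries (20.5 and 12.3 CPM per kb). Alas2 led those at 2020 and 2900 CPM per kb. Exon lengths are those of all annotated isoforms merged, so these levels are approximate.

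Monocyte and macrophage genes moved with Hmox1 between the libraries of each group. Brain library 1, with the higher Hmox1, had 3.36% of its counts in monocyte and macrophage genes against 1.36% in brain library 2, and tMCAO blood library 1 had 2.78% against 1.18% in library 2. Cd163, the haemoglobin scavenger receptor of macrophages, was at 127.4 and 0.899 CPM in brain, with 40.1 and 23.3 CPM in blood after tMCAO and 0 and 0.422 CPM in the sham libraries. Other myeloid lists did not all run this way. Neutrophil genes were at 0.175% and 0.0249% in brain libraries 1 and 2 but at 0.0310% and 0.788% in tMCAO blood libraries 1 and 2, and dendritic cell genes were at 0.0623% and 0.127% in brain. The part of such cells in the Hmox1 level was not tested. Hmox1 lies on chromosome 8 from 75093621 to 75100589 (plus strand), with no overlapping gene.

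Counted over the 9 genes, calls were few in each comparison. In brain against tMCAO blood, 2 were higher (Alas1 and Ppox), where 3.53% of all genes tested were called higher. None was called lower by edgeR, where 1.37% of all genes were. At an unadjusted p under 0.05, 1 was lower, Alas2, which DESeq2 called (adjusted p = 0.000135) and limma-voom did not. Fitted with these 2 groups alone, none of the 9 was called by edgeR, with 3 at an unadjusted p under 0.05. In tMCAO blood against sham blood, 2 were lower (Urod and Fech), where 3.15% of all genes were called lower. None was called higher by edgeR, where 4.33% of all genes were, and at an unadjusted p under 0.05 the count was 1, Hmox1, which DESeq2 called and limma-voom did not. In brain against sham blood, 1 was higher (Alas1), where 8.01% of all genes were called higher, and 2 were lower (Alas2 and Fech), where 2.62% were. The 3 comparisons share libraries in pairs, so their counts are not independent.

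The median log2 difference of the 9 genes was 0.59 in brain against tMCAO blood, -1.48 in tMCAO blood against sham blood and -0.44 in brain against sham blood, beside medians over all genes of 0.062, 0.112 and 0.093. The libraries of the 2 groups did not overlap for 7, 8 and 7 of the 9 genes in these comparisons. Over all genes tested this share was 57.3%, 63.9% and 64.6%. Without brain library 1 and tMCAO blood library 1, the 2 libraries under 1 CPM of Foxp3, the members called numbered 4, 6 and 6 in place of 2, 2 and 3, while the calls over all genes went from 816, 1246 and 1772 to 3609, 3850 and 4979. This check was chosen after the values were seen, and it leaves 1 residual degree of freedom, from the sham pair.

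**Figure D2:**
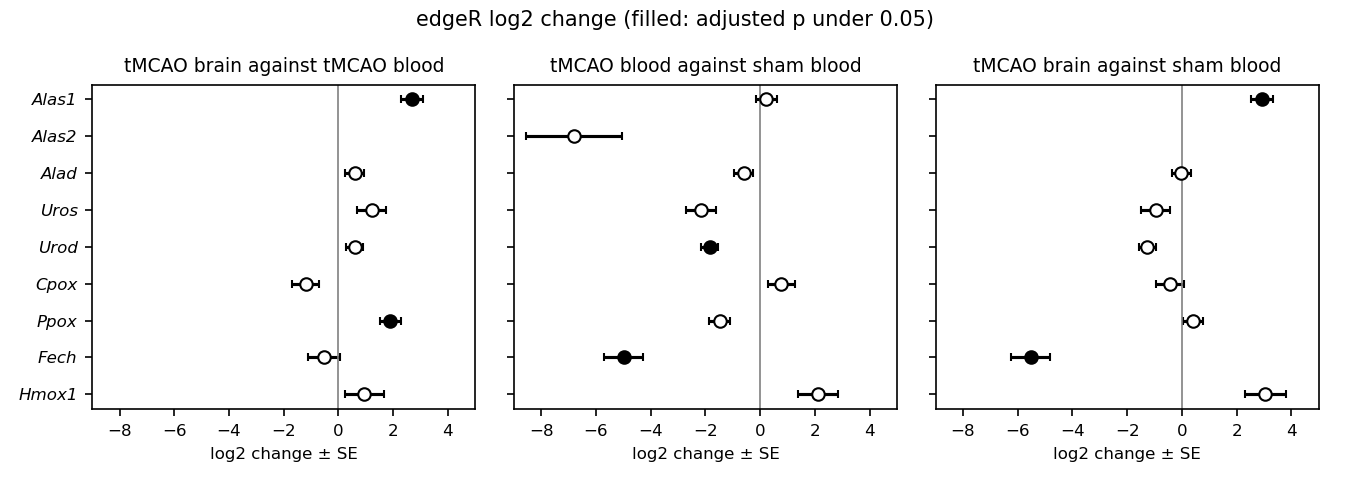
Log2 differences of the 9 genes in the 3 comparisons with their SE from the edgeR fit, filled where the adjusted p was under 0.05. Alas2 is left out of the 2 brain comparisons, where 1 brain library had no count. Fech and Urod were lower in tMCAO than in sham blood, and Alas1 was higher in brain than in either blood group.

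In blood, Alas2 was set against the globins, which carry haem, the end product of its pathway. The 4 adult globin genes (Hba-a1, Hba-a2, Hbb-bs and Hbb-bt) had 20582 and 630195 counts in tMCAO blood, 2206810 and 2237550 counts in sham blood, and 14 and 0 counts in brain. For each 10000 globin counts there were 23.3 and 32.8 Alas2 counts in the tMCAO blood libraries and 342 and 443 in the sham libraries. On this scale the tMCAO blood libraries, far apart in CPM, lay close together, and the sham mean was 14.0-fold above theirs. Other genes were added after their values were seen. Slc4a1, which encodes the red cell anion exchanger band 3, had 0 and 2.78 counts per 10000 globin counts after tMCAO and 3.57 and 5.56 in the sham libraries, so both sham libraries were again the higher. The count of 0 allows up to 1.46 on this scale (3 counts, counting error only). Epb42, another red cell gene, gave 0.972 and 0.0793 after tMCAO, from 2 and 5 counts, and 2.85 and 5.04 in the sham libraries. The same ratio for Fech did not separate the groups, at 288 and 34.3 after tMCAO and 127 and 168 in the sham libraries. The 288 of tMCAO blood library 1 is 593 Fech counts (31.9 CPM) over 20582 globin counts. Fech was higher in brain (43.3 and 53.4 CPM), where there were almost no globin counts. The part of cells without globin in this ratio was not tested. In tMCAO blood library 2 the ratio lay below both sham values. No test was made on these ratios.

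**Figure D3:**
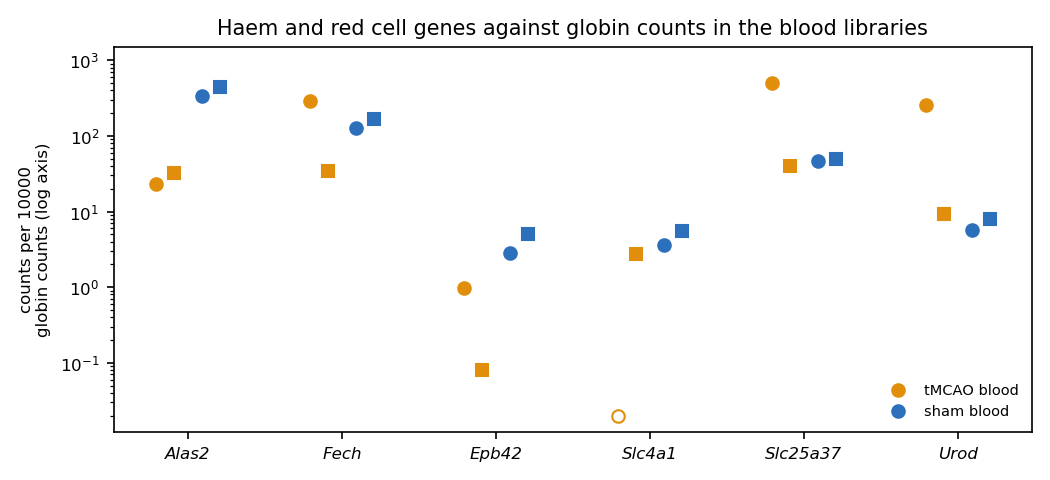
Counts of Alas2 and of other genes per 10000 globin counts in the 4 blood libraries, on a log axis, with 1 point a library; an open marker at the bottom stands for a count of 0 (Slc4a1 in tMCAO blood library 1). The 2 sham points lay above both tMCAO blood points for Alas2, Slc4a1 and Epb42. They lay between them for Fech and Slc25a37, and below them for Urod.

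Genes whose levels ran most like those of Alas2 and Hmox1 over the 6 libraries were found by the Pearson correlation of log2 CPM among 7519 genes with at least 20 CPM in a group, given as a description because the points share 3 groups and the libraries' makeup. For Alas2 they included Snapc3 (0.997), Tspo2 (0.996) and Treml1 (0.996). For Hmox1 they were Cebpzos (0.995), Ifi207 (0.992), Golga4 (0.990), Prdx1 (0.989) and Fkbp15 (0.988). Prdx1, a peroxiredoxin, is also on the list of NRF2 target genes described next. Among the 9 genes, the strongest likeness was between Alas2 and Fech (0.916) and between Urod and Fech (0.888), and Hmox1 ran opposite to Fech (-0.888).

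The genes that supply the mitochondrion for haem synthesis, move haem or sense it were followed in 6 further lists. Of the 10 supply genes, all tested, 1 was higher in brain than in tMCAO blood and 1 was lower in each comparison with sham blood, where the shares over all genes were 3.53%, 3.15% and 2.62%. Their median log2 differences were -0.23, 0.14 and 0.24 in brain against tMCAO blood, tMCAO blood against sham blood and brain against sham blood, where those over all genes were 0.062, 0.112 and 0.093. The iron importer mitoferrin 1, Slc25a37, which feeds iron to ferrochelatase in red cell precursors, was at 52.0 and 20.3 CPM in brain, with 56.3 and 124.5 CPM in blood after tMCAO and 664.9 and 774.8 CPM in the sham libraries. Both sham libraries stood above the other 4. It was 7.96-fold lower in tMCAO blood (log2 difference -2.99 ± 0.61, adjusted p = 0.0422) and 19.9-fold lower in brain (-4.32 ± 0.64, adjusted p = 0.0169) than in sham blood. The first call was lost without either tMCAO blood library (0.142 and 0.0502) or either sham library (0.201 and 0.280), and the second without either sham library (0.117 and 0.115). The log2 difference was -3.68 in tMCAO blood without its library 2, and -5.16 in brain without brain library 1. Pgrmc1, a haem-binding partner of ferrochelatase, was at 108.3 and 125.1 CPM in brain, with 40.7 and 35.0 CPM in blood after tMCAO and 58.0 and 60.1 CPM in the sham libraries. It was 3.08-fold higher in brain than in tMCAO blood (1.62 ± 0.25, adjusted p = 0.0294), a call lost with any library left out (0.0694 to 0.117).

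Of the 9 haem transport genes, 7 were tested. Between brain and tMCAO blood 2 were higher in brain, in tMCAO blood against sham blood 1 was higher and 2 were lower, and in brain against sham blood 1 was higher and 1 was lower (medians 0.76, 0.72 and 1.03). In the order of these counts, 3.53%, 4.33%, 3.15%, 8.01% and 2.62% of all genes were called. Slc48a1 encodes HRG1, which carries haem out of the lysosome. It was at 82.3 and 56.8 CPM in brain, with 34.7 and 47.6 CPM in blood after tMCAO and 271.9 and 372.6 CPM in the sham libraries, with both sham libraries highest. It was 7.83-fold lower in tMCAO than in sham blood (log2 difference -2.97 ± 0.36, adjusted p = 0.0313) and 4.63-fold lower in brain (-2.21 ± 0.35, adjusted p = 0.0193). Leaving out tMCAO blood library 1 (0.0929) or either sham library (0.192 and 0.262) ended the first call, and leaving out brain library 2 (0.0606) or either sham library (0.122 and 0.151) ended the second. Slc48a1 overlaps Hdac7 on the other strand.

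Abcg2, an exporter of porphyrins, was at 28.3 and 26.9 CPM in brain, with 5.33 and 3.29 CPM in blood after tMCAO and 15.7 and 17.8 CPM in the sham libraries, so tMCAO blood was the lowest group with no overlap. It was 6.40-fold higher in brain than in tMCAO blood (log2 difference 2.68 ± 0.38, adjusted p = 0.0264) and 3.89-fold lower in tMCAO than in sham blood (-1.96 ± 0.37, adjusted p = 0.0387). The first call was lost without either brain library, tMCAO blood library 2 or either sham library (0.0592 to 0.0901), and the second with any library left out (0.0508 to 0.285). Slco2b1, an organic anion transporter that is also a known microglia gene, was at 127.2 and 113.0 CPM in brain, with 4.68 and 9.57 CPM in blood after tMCAO and 0.321 and 0.0704 CPM in the sham libraries. The groups were ordered without overlap, as was the summed share of the microglia genes, though P2ry12 of that list was higher in sham than in tMCAO blood. Brain was 16.8-fold above tMCAO blood (4.07 ± 0.52, adjusted p = 0.0223) and 581-fold above sham blood (9.18 ± 0.71, adjusted p = 0.00841), and tMCAO blood was 34.5-fold above sham blood (5.11 ± 0.65, adjusted p = 0.0313). These calls were lost without either sham library (0.0590 to 0.262), that of brain against tMCAO blood also without brain library 2 (0.0503) or tMCAO blood library 1 (0.0569) or 2 (0.0518), and that between the blood groups also without tMCAO blood library 1 (0.0711) and with limma-voom (0.0509). The log2 differences of Slco2b1 with a library left out reached 4.67 in brain against tMCAO blood (without tMCAO blood library 2). They ran from 4.44 to 6.52 between the blood groups and from 8.51 to 10.49 in brain against sham blood (without sham library 2 and 1, in both cases).

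Of the 14 genes of haem breakdown and sensing, all tested, 3 were higher in brain than in tMCAO blood, 1 was higher in tMCAO than in sham blood, and 3 were higher in brain than in sham blood (medians 0.058, 0.21 and 0.84). Over all genes 3.53%, 4.33% and 8.01% were called in these directions. The factors that govern Hmox1 are known: NRF2, encoded by Nfe2l2, activates it with a small MAF partner, and BACH1 represses it until haem binds BACH1. Nfe2l2 was at 899.2 and 601.9 CPM in brain, with 182.3 and 106.2 CPM in blood after tMCAO and 100.3 and 127.2 CPM in the sham libraries, with both brain libraries highest. It was 5.20-fold above tMCAO blood (log2 difference 2.38 ± 0.41, adjusted p = 0.0362) and 6.60-fold above sham blood (2.72 ± 0.42, adjusted p = 0.0179) in brain. Its first call was lost with any library left out (0.0608 to 0.117) and its second without either sham library (0.181 and 0.154).

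The small MAF genes did not share one pattern. Maff was at 16.2 and 18.3 CPM in brain, with 0.861 and 1.20 CPM in blood after tMCAO and 0.449 and 0.352 CPM in the sham libraries, and was 16.7-fold (log2 difference 4.06 ± 0.51, adjusted p = 0.0223) and 42.4-fold (5.40 ± 0.56, adjusted p = 0.00956) higher in brain than in these groups. Mafk, at 20.5 and 20.2 CPM in brain, with 5.06 and 4.44 CPM in blood after tMCAO and 7.70 and 10.1 CPM in the sham libraries, was 4.28-fold higher in brain than in tMCAO blood (2.10 ± 0.38, adjusted p = 0.0385). Mafg, at 61.0 and 44.2 CPM in brain, with 85.4 and 54.8 CPM in blood after tMCAO and 18.0 and 10.7 CPM in the sham libraries, was 4.88-fold (2.29 ± 0.40, adjusted p = 0.0360) and 3.66-fold (1.87 ± 0.40, adjusted p = 0.0374) higher in tMCAO blood and in brain than in sham blood. The Mafk call was lost with any library left out (0.0878 to 0.122). The Maff call against tMCAO blood was lost without brain library 2 or any blood library (0.0567 to 0.0724), and that against sham blood without either sham library (0.108 and 0.104). The Mafg calls were lost without either sham library (0.165 to 0.282), that in tMCAO blood also without tMCAO blood library 1 (0.113), and that in brain also without brain library 1 (0.117) or 2 (0.0558).

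Other genes of the list that act directly on the product or the repressor were named after their values were seen, and none passed with edgeR in the fit of all libraries. Bach1 was at 70.1 and 31.0 CPM in brain, with 98.3 and 59.5 CPM in blood after tMCAO and 21.6 and 16.5 CPM in the sham libraries (adjusted p = 0.0545 between the blood groups, called under 8 of 15 alternatives with adjusted p from 1.76e-05 to 0.367). Hmox2, the constitutive haem oxygenase, was at 164.0 and 73.0 CPM, then 95.6 and 45.0 CPM, and lastly 62.2 and 71.8 CPM. By group mean it was ordered like Hmox1, but its tMCAO blood libraries lay on either side of both sham libraries. The log2 difference of Hmox2 between the blood groups was 0.07 (edgeR adjusted p = 0.94). Blvra, a biliverdin reductase, was at 139.4 and 69.2 CPM, 152.6 and 73.5 CPM, and 63.2 and 50.6 CPM. For Hmox2 and Blvra, library 1 of brain and of tMCAO blood was above library 2, as it was for Hmox1. Blvrb, the other biliverdin reductase of the list, shared this library order but not the group order of Hmox1. Its group mean was highest in sham blood (347.1 CPM), lower after tMCAO in blood (225.3 CPM) and lowest in brain (168 CPM). The brain mean of Blvrb joins libraries that differed widely, library 1 at 293.2 and library 2 at 42.8 CPM.

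**Figure D4:**
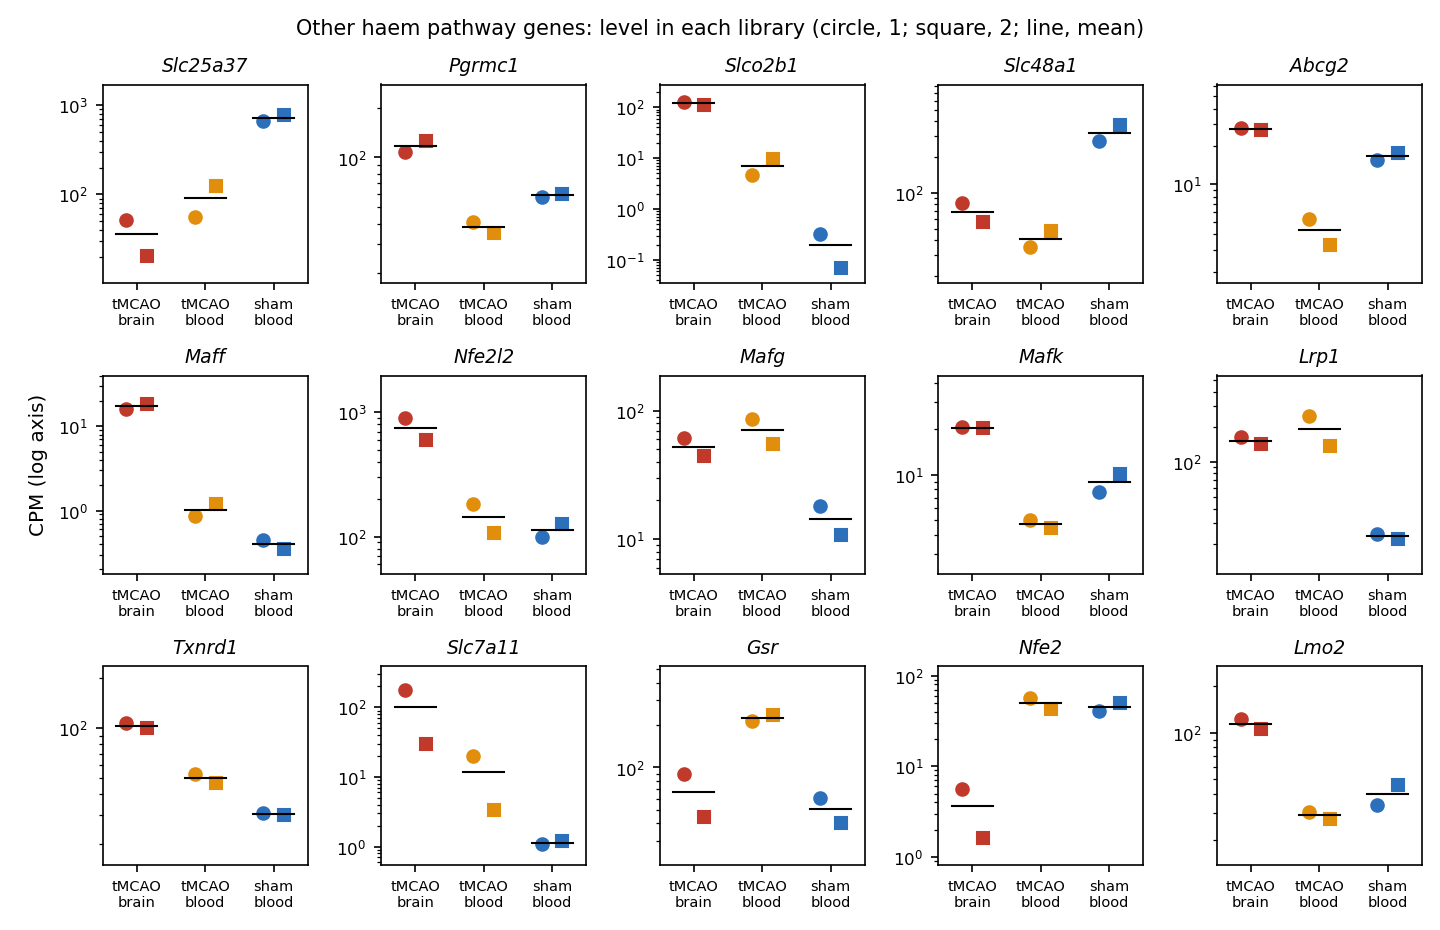
Levels of the named genes of the 6 further lists in each library, as CPM on a log axis, with 1 point a library coloured by group. Slc25a37 and Slc48a1 were highest in the sham libraries, and Slco2b1, Nfe2l2 and Maff in the brain libraries.

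The 4 genes that take up haemoglobin or haem from outside the cell, or carry it in plasma, were all tested. In each comparison with sham blood 1 was higher (medians 4.91 for tMCAO blood and 4.46 for brain, or 2.95 and 2.46 with Hpx, which had no count in sham blood, set at a bound of 3 counts over that group), where 4.33% and 8.01% of all genes were called higher. Between brain and tMCAO blood none was called by edgeR, and none had an unadjusted p under 0.05 (median -0.45). The called gene was Lrp1, a receptor for haemopexin with bound haem. It was at 162.7 and 141.5 CPM in brain, with 250 and 136.7 CPM in blood after tMCAO and 24.5 and 22.0 CPM in the sham libraries, with the sham libraries lowest. Lrp1 was 8.32-fold (log2 difference 3.06 ± 0.38, adjusted p = 0.0313) and 6.54-fold (2.71 ± 0.37, adjusted p = 0.0146) higher in tMCAO blood and brain than in sham blood, calls lost without either sham library (0.147 to 0.262) and, in tMCAO blood, without tMCAO blood library 1 (0.0715).

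Of the 13 NRF2 target genes, all tested, 1 was higher in tMCAO blood and 2 were higher in brain than in sham blood (medians 0.63 and 1.20), where 4.33% and 8.01% of all genes were. In brain against tMCAO blood none was called by edgeR, with 4 higher and 2 lower at an unadjusted p under 0.05 (median 0.87). Gsr, the glutathione reductase, was at 89.8 and 44.2 CPM in brain, with 215.2 and 238.0 CPM in blood after tMCAO and 60.3 and 40.4 CPM in the sham libraries, and was 4.50-fold higher in tMCAO than in sham blood (log2 difference 2.17 ± 0.42, adjusted p = 0.0406). Txnrd1, a thioredoxin reductase, was at 106.8 and 100.5 CPM in brain, with 53.2 and 46.7 CPM in blood after tMCAO and 31.0 and 30.0 CPM in the sham libraries, and was 3.40-fold higher in brain than in sham blood (1.77 ± 0.24, adjusted p = 0.0146). Slc7a11, the cystine importer, was at 175.8 and 29.9 CPM in brain, with 20.1 and 3.39 CPM in blood after tMCAO and 1.09 and 1.20 CPM in the sham libraries, and was 89.4-fold higher in brain than in sham blood (6.48 ± 1.29, adjusted p = 0.0328). Like Hmox1, Slc7a11 was higher in library 1 than in library 2 of both tMCAO groups. The Gsr call was lost without any of the 4 blood libraries (0.0724 to 0.320), the Txnrd1 call without either sham library (0.168 and 0.165), and the Slc7a11 call without brain library 1 (0.0676), without either sham library (0.216 and 0.217) and with limma-voom (0.0997). The Slc7a11 log2 difference was 4.69 without brain library 1 and 7.26 without brain library 2.

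Of the 9 red cell transcription factor genes, all tested, 1 was higher and 1 lower in brain than in tMCAO blood, and 1 was higher and 1 lower in brain than in sham blood (medians -1.06 and -0.71). Over all genes 3.53% and 1.37% were called in the first case and 8.01% and 2.62% in the second. In tMCAO blood against sham blood none was called by edgeR and none had an unadjusted p under 0.05 (median -0.058). Nfe2, which drives globin and platelet genes, was at 5.69 and 1.63 CPM in brain, with 57.2 and 42.3 CPM in blood after tMCAO and 40.2 and 50.4 CPM in the sham libraries. It was 13.7-fold lower in brain than in tMCAO blood (log2 difference -3.78 ± 0.62, adjusted p = 0.0335) and 12.5-fold lower than in sham blood (-3.64 ± 0.62, adjusted p = 0.0223), and its blood groups overlapped where those of Alas2 did not. Lmo2, an adaptor that joins GATA1 and TAL1, was at 122.5 and 105.3 CPM in brain, with 30.4 and 27.4 CPM in blood after tMCAO and 33.6 and 45.7 CPM in the sham libraries, 3.94-fold (1.98 ± 0.28, adjusted p = 0.0260) and 2.87-fold (1.52 ± 0.27, adjusted p = 0.0258) higher in brain. The Nfe2 calls were lost without brain library 2 or any of the blood libraries in the first case (adjusted p up to 0.0974) and without either sham library in the second (0.129 and 0.143). The Nfe2 log2 differences were -4.93 and -4.80 without brain library 1, and -3.12 and -2.99 without brain library 2. The Lmo2 calls were lost with any library left out in the first case (0.0571 to 0.0901), and without either brain or either sham library in the second (0.0512 to 0.254). Gata1, which is known to drive Alas2, was named after its values were seen. It was at 0.0605 and 0.163 CPM in brain. Its levels were 0 and 4.73 CPM in blood after tMCAO and 23.8 and 43.4 CPM in the sham libraries. By group mean this was the order seen for Alas2, but the brain and tMCAO blood libraries overlapped for Gata1. Gata1 did not pass with edgeR in the fit of all libraries (adjusted p = 0.202, 0.170 and 0.0568 in brain against tMCAO blood, tMCAO blood against sham blood and brain against sham blood). The last was called under 8 of 15 alternatives, with adjusted p from 1.15e-22 to 0.244. Among the other factors of the list, only Ldb1 shared the group order of Gata1 by mean, and its blood groups overlapped. Klf1 and Gfi1b had higher means in tMCAO than in sham blood (0.893 against 0.324 CPM, and 9.145 against 1.118 CPM). Tal1 was highest in brain (mean 8.975 CPM, with 1.714 CPM in tMCAO blood and 1.923 CPM in sham blood). These genes were also named after their values were seen, and none passed with edgeR.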

How the data were processed

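Messenger RNA of 6 libraries of sorted cells was measured by bulk RNA sequencing, paired-end at 75 bp after SMART-Seq amplification and Nextera XT library preparation, per the labels' protocols. These steps amplify cDNA and, as described there, use no molecular identifiers, so intervals hold for counting error alone. The deposited table gives whole-number read counts per gene, which the authors made with STAR (version not given) and HTSeq 0.11.2 on GRCm38, per the submitters' processing notes. The strand setting, annotation and treatment of reads with several positions are not given in the sources used here, so genes that overlap another gene are uncertain. Columns were matched to libraries by abbreviated names, with S read as sham and M as tMCAO, and no column was left unused.

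All 6 libraries were fitted together in edgeR 4.0.16 (R 4.3.3) with its quasi-likelihood test. Genes were kept by filterByExpr with a minimum count of 10, libraries were scaled by TMM, and p-values were adjusted by Benjamini-Hochberg over all 16657 genes tested within each comparison of the 3, and a call needed an adjusted p under 0.05. The fit has 3 residual degrees of freedom. The SE of a log2 difference was taken from the test's F, as the absolute difference over the root of F. The script was tested on simulated data. Alternatives used DESeq2 1.42.0 (size factors and Wald test), limma-voom (limma 3.58.1), other filters and scalings, fits of 2 groups alone, a block for the replicate number, and each library left out. The 2 libraries of a group differed beyond counting noise in every group. Coordinates and exon lengths are from GENCODE M21, which held 97.3% of the table's symbols, and promoters are from RefSeq. The figures were drawn with matplotlib 3.10.9.

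The members and gene lists were chosen with earlier results of these data known. The text names all 9 members, up to 4 called genes of each list by smallest adjusted p, and up to 5 genes most like each of Alas2 and Hmox1, leaving out predicted genes and antigen receptor segments. Some genes that this rule selects are not reported here. Red cell, T cell, regulatory T cell, microglia, monocyte and macrophage, neutrophil, B cell, platelet and dendritic cell markers were summed as shares of counts.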

Additional observations from a re-analysis of the deposited data

How the results depend on the processing

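Of the results for the 9 enzymes, 325 of the values recomputed under the alternatives kept their direction and side of the threshold, 38 gained a call, 31 lost one and 11 changed sign. For the other named genes these numbers were 534, 24, 109 and 8. Where a value changed, the cause was not tested. Against 816, 1246 and 1772 genes called in brain against tMCAO blood, tMCAO blood against sham blood and brain against sham blood, no filter on low counts gave 3598, 3611 and 4458, DESeq2's Wald test 3451, 3806 and 4007, and leaving out both libraries under 1 CPM of Foxp3 (chosen after seeing the data) 3609, 3850 and 4979. In brain against tMCAO blood the stricter filter (at least 5 CPM in 2 libraries) gave 1237, limma-voom 1446 and only the 2 groups compared 26, and the latter gave 2752 in brain against sham blood. Leaving out 1 library gave 31 to 313, 0 to 1240 and 0 to 2080 genes. With edgeR the count was 0 in both comparisons with sham blood without either sham library, and also in tMCAO blood against sham blood without tMCAO blood library 1. At an unadjusted p under 0.05 these fits had 2490 to 3843 genes, and no other tool was run on them.

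Of the 9 enzymes, 2, 2 and 3 were called. In brain against tMCAO blood DESeq2 size factors and scaling without red cell genes gave 1 each, no filter 4, only the 2 groups compared 0 (3 at an unadjusted p under 0.05) and both low-Foxp3 libraries left out 4. In tMCAO blood against sham blood, no filter, DESeq2's Wald test and both libraries left out gave 6 each, and limma-voom and the replicate block 4 each. In brain against sham blood, no filter, the stricter filter and DESeq2's Wald test gave 5 each, and both libraries left out 6. Leaving out 1 library gave 0 to 1, 0 to 3 and 0 to 3.

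Direction changed as follows. Without both low-Foxp3 libraries the log2 difference was -0.013 for Hmox1 in brain against tMCAO blood, -0.10 for Alas1, -0.054 for Nfe2l2 and -0.054 for Nfe2 in tMCAO blood against sham blood, and 0.13 for Alad and -0.21 for Gsr in brain against sham blood. Alad there was 0.0035 with the stricter filter and 0.0023 with limma-voom. Leaving out 1 library gave ranges that crossed 0. In brain against tMCAO blood they were -0.47 to 1.65 for Hmox1, -0.73 to 0.15 for Lrp1 and -1.16 to 0.59 for Fech. In tMCAO blood against sham blood they were -0.15 to 0.52 for Alas1, -0.10 to 0.68 for Nfe2l2 and -0.10 to 0.34 for Nfe2 (-0.054 without sham library 1). In brain against sham blood they were -0.34 to 0.20 for Alad (0.15 without brain library 1), -1.12 to 0.0095 for Cpox and -0.20 to 0.83 for Gsr. None of these results was called in the fit of all 6 libraries.

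Deviations of same-numbered libraries had a correlation of 0.30 between brain and tMCAO blood. With sham blood it was -0.03 for brain and -0.07 for tMCAO blood. Sham mice are other animals, so these last values cannot show whether brain and tMCAO blood libraries came from the same mice. The labels state no pairing, so the numbers were not taken as pairs, and pairing of those 2 groups was not settled. The fit with the replicate block called 803, 1318 and 1977 genes. With the block, Hmox1 was called against sham blood in tMCAO blood (adjusted p = 0.0442) and in brain (0.0170), Alas2 was called between the blood groups (0.0450), and the Mafk call in brain against tMCAO blood was lost (0.0529). Alas2 rests on few counts in the brain, where 2 counts were found in both libraries together. The brain libraries were the deepest, at 19856348 and 24460894 counts, and the sham libraries the shallowest, at 15216373 and 14348179.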

Other observations

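The lists of other cell types not used in the comparisons gave these summed shares of counts. Neutrophil genes took 0.0249% to 0.175% in brain, 0.0310% to 0.788% in tMCAO blood and 0.00211% to 0.00214% in sham blood. B cell genes took 0.0154% to 0.149%, 0.0151% to 0.0780% and 0.0867% to 0.103% in the same order, platelet genes 0.00636% to 0.0509%, 0.0758% to 0.185% and 0.118% to 0.159%, and dendritic cell genes 0.0623% to 0.127%, 0.00116% to 0.00660% and 0.0527% to 0.0694%. The 6 regulatory T cell genes took 0.00563% to 0.0412%, 0.0137% to 0.0945% and 0.157% to 0.158%. Pf4 alone gave 9738 of the 10108 platelet gene counts in brain library 1 and 34155 of 35665 in tMCAO blood library 1. Ppbp, another gene of that list, was at 49.0 and 80.8 CPM in tMCAO blood and at 377.3 and 676.6 CPM in sham blood.

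Per 10000 globin counts, the supply gene Slc25a37 and the synthesis enzyme Urod differed widely between the tMCAO blood libraries, unlike Alas2. Slc25a37 gave 508 and 39.7 counts there against 46.9 and 49.2 in sham blood, and Urod gave 256 and 9.16 against 5.75 and 7.89. Both genes also had counts in brain (860 and 498 for Slc25a37, 827 and 883 for Urod), where globin counts were 14 and 0. The part of cells without globin in these ratios was not tested. These genes were chosen after their values were seen.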
